A study of Mus musculus with 13 samples.

Results

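Messenger RNA of 9 genes of macrophages and antigen presentation was followed in single cells of the developing mouse heart. The genes were chosen by name and are Cx3cr1, Ccr2, Lyve1, Timd4, Folr2, Mrc1, Cd74, H2-Aa and Lyz2, out of 27998 genes listed in every matrix. Macrophage barcodes were those with at least 1000 unique molecular identifiers (UMIs, the tags by which copies of a transcript made by PCR are counted once) and at least 6 UMIs of C1qa, C1qb, C1qc, Csf1r, Fcer1g and Tyrobp together. They numbered 643 of the 90960 barcodes that reached 1000 UMIs. The animals were wild-type C57Bl/6J mice. Cells came from whole embryos without head and limbs on embryonic days E8.5 and E10.5, from hearts on E12.5, E14.5 and E16.5, and from hearts on postnatal day 3 (P3). E10.5, E12.5, E14.5 and E16.5 had 2 libraries each and were compared by tests. E8.5 had 1 library, called replicate 2 after the sample name in its label. P3 had 1 matrix that joined the barcodes of its 2 records under the suffixes 1 and 2. Neither stage therefore entered a test. The paper, judging by eye, reports marked batch differences at P3 only, and levels of P3 given below are those of the joined matrix unless a suffix is named. The labels do not say whether replicates came from separate litters, and the p-values therefore measure the spread between these libraries, which may be technical. Between E10.5 and E12.5 stage changed together with tissue, from embryo to heart, and these cannot be told apart.

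Macrophages of the embryonic heart derive from progenitors of the yolk sac and the fetal liver, and later also from blood monocytes. Ccr2 marks cells of recent monocyte origin in the adult heart, whereas Lyve1, Timd4 and Folr2 mark resident macrophages that maintain themselves locally. Major histocompatibility complex (MHC) class II molecules display peptides to T cells, and their genes are switched on together by the coactivator CIITA through short elements upstream of each gene. Lysozyme M is a bacteriolytic enzyme of myeloid cells that has long been used as a marker of the lineage.

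The sequences upstream of a pair of class II genes, and of the lysozyme gene and its neighbour, are given because members of each pair are set side by side in the results. They were taken from RefSeq in the build GRCm38.p6 and run 5′ to 3′ towards the start of the gene. Capitals mark GCAAC (the core of the X box), TGACGTCA (the X2 box) and CTGATTGG (the Y box) in the class II genes, and AGGAAGT read on the opposite strand, which holds the core of ETS factors such as PU.1, in the lysozyme genes. The first is H2-Aa at chr17:34287824-34288073 on the minus strand, the next H2-Eb1 at chr17:34305617-34305866 on the plus strand, and the last are Lyz2 at chr10:117282323-117282522 and Lyz1 at chr10:117292919-117293118, both on the minus strand and without the 50 bases next to the start.
H2-Aa: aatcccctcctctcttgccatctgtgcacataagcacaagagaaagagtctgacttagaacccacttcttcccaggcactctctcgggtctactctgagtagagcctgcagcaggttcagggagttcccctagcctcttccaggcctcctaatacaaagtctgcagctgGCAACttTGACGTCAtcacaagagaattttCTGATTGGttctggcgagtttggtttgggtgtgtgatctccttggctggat
H2-Eb1: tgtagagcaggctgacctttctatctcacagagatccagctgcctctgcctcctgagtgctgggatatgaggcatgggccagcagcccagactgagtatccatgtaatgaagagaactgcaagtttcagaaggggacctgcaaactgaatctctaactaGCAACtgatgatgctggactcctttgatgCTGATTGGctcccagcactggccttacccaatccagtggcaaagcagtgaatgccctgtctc
Lyz2: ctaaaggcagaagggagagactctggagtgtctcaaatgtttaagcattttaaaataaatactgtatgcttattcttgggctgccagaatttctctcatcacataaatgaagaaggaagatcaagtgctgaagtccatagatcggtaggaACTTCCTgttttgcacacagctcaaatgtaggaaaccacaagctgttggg
Lyz1: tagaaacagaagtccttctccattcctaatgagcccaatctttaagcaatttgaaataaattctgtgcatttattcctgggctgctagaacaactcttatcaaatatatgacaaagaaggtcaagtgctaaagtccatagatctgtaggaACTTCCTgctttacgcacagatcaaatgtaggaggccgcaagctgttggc

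Both strands of the 250 bases upstream of each start were searched. In H2-Aa, GCAAC lay 81 to 77 bases before the start, TGACGTCA 74 to 67 bases before it and CTGATTGG 51 to 44 bases before it. In H2-Eb1, GCAAC lay at 91 to 87 and CTGATTGG at 62 to 55, and TGACGTCA was not found as these letters. Of 32851 promoters in the RefSeq table, 29.9% held GCAAC on either strand, 1.55% held TGACGTCA and 3.83% held CTGATTGG. The letters AGGAAGT lay on the opposite strand 100 to 94 bases before both lysozyme starts of RefSeq, and 7.69% of all promoters held them. Among the 7 of 9 genes with an entry in the table, Folr2 held AGGAAGT at 2 places and Mrc1 at 1. A match of letters describes the sequence and is no measure of binding.

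The 10 matrices held between 67141166 and 259041468 UMIs each. Macrophage barcodes numbered 5 at E8.5, 42 and 41 (E10.5), 36 and 23 (E12.5), 72 and 53 (E14.5), 94 and 67 (E16.5), and 210 at P3, which was between 0.0819% (E8.5) and 1.96% (P3) of the barcodes of at least 1000 UMIs. Their median depth was between 7662 and 28529 UMIs, highest in the embryos, and that of other barcodes between 7967 and 23379. Of the 643, 475 held at least 3 UMIs of C1qa, C1qb and C1qc together, here called C1q-positive. The other 168 are called C1q-low and were mixed. From E14.5 on, 39 of their 97 barcodes held at least 6 UMIs of 9 neutrophil genes and 14 held as many of 7 mast cell genes, whereas 0 of the 399 C1q-positive barcodes at these stages reached that number for either list. Up to E12.5, 40 of 147 macrophage barcodes held at least 6 UMIs of the platelet genes Ppbp, Gp9 and Itga2b. This list and the division by C1q were chosen after the values had been seen. All members are therefore given for the whole class and for its C1q-positive barcodes. Cardiomyocyte genes (12 listed) summed to between 1010 and 7907 CPM (UMIs of a gene for every 1000000 UMIs of the class in its library) in C1q-positive barcodes of the hearts, and 7 globin genes to 119780 CPM at E12.5 replicate 2. Their part in the results was not tested. At E10.5, 58 of 83 macrophage barcodes were doublet-like by the measure used, 6 of them by at least 6 UMIs of endothelial or mesenchymal genes. The other 52 only had a share of cardiomyocyte UMIs above the median of other barcodes, which was 0 there, so that 1 such UMI was enough. No macrophage barcode sequence was shared between any of 45 pairs of matrices.

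Across all matrices the members separated macrophage barcodes from the rest to different degrees. Cx3cr1 was detected in 471 of 643 macrophage barcodes (73.3%) and in 113 of 90317 others (0.125%), Ccr2 in 113 and 14, Timd4 in 38 and 8, and Folr2 in 134 and 31. Mrc1 was detected in 321 macrophage barcodes (49.9%) and 400 others (0.443%). Lyve1 was found in more barcodes outside the class, 840, than inside it, 104, and Lyz2 in 2746 others (3.04%) against 528 inside (82.1%). Cd74 was found in 195 macrophage and 295 other barcodes, and H2-Aa in 21 and 102. None of the 168 C1q-low barcodes held a UMI of Mrc1 or Folr2, which allows a share of barcodes with a UMI of up to 1.79% for each, while 51 held Cx3cr1, 49 held Ccr2 and 109 held Lyz2. Among the 17 barcodes just inside the rule, with 6 or 7 UMIs of its genes, members had 51 UMIs in all, 50 of them of Lyz2, and the 45 just outside it, with 4 or 5, had 37, of which 32 were of Lyz2. Intervals and limits cover counting error only.

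In sums over macrophage barcodes Cx3cr1, Ccr2, Folr2 and Mrc1 rose up to E14.5, with Lyve1 in the later step, and Cd74 and H2-Aa at E16.5, while Lyz2 rose in all 3 steps. The make-up of the barcodes that passed the rule also changed between stages. In each E16.5 library 2 barcodes without C1q held most UMIs of H2-Aa and of Cd74. In C1q-positive barcodes the steps of Cx3cr1 and Mrc1 to E14.5 were not called. Over the 8 members that could be tested in macrophage barcodes, 5 were called from E10.5 to E12.5 (Lyz2, Folr2, Ccr2, Mrc1 and Cx3cr1), 6 from E12.5 to E14.5 (the same 5 and Lyve1) and 3 from E14.5 to E16.5 (H2-Aa, Cd74 and Lyz2), all of them higher at the later stage. Of all 7057 genes tested, 15.9, 8.11 and 0.921% were called in these steps, with 10.4, 4.32 and 0.709% higher and 5.53, 3.78 and 0.213% lower. H2-Aa passed the filter through E16.5 alone. Without H2-Aa 5, 6 and 2 of 7 members were called. Their median log2 change was 2.68, 1.67 and 0.06, against 0.05, 0.01 and -0.01 over all genes. Judged by their CPM, Folr2, Lyve1, Ccr2 and Cd74 also passed the filter only with libraries of E14.5 or E16.5 counted, where they were high. With no filter 6, 7 and 3 of 9 members were called, against 9.28, 5.98 and 1.96% of 15546 genes. Other lists moved in the same steps. The 6 genes of the macrophage rule, which chose the barcodes and are given as a description only, had a median log2 change of 1.68, 0.70 and 0.36. Of 12 cardiomyocyte genes 10 rose at E12.5 (median 4.60), 6 at E14.5 (1.79) and 3 at E16.5 (1.07), 6 of 7 globin genes rose at E12.5 (5.99) and 4 fell at E14.5 (-5.42), and 3 of 4 mast cell genes tested rose at E16.5 (5.27). Their part in the changes of the members was not tested. The count of 5 fell to 3 without doublet-like barcodes, when Folr2 (edgeR adjusted p = 0.0799) and Ccr2 (0.220) missed the threshold, and to 3 without E10.5 replicate 1, the count of 6 to 2 without E12.5 replicate 1 or E14.5 replicate 1 and to 4 with at least 12 UMIs of the rule genes or without doublet-like barcodes, where Mrc1 (adjusted p = 0.0694 and 0.126) and Cx3cr1 (0.0653 and 0.0524) missed the threshold, and the count of 3 to 1 without E14.5 replicate 1.

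From E12.5 to E16.5, 7 of the 8 members rose (6 of 7 without H2-Aa), where 13% of all genes were called (6.94% higher and 6.08% lower), the exception being Cx3cr1 (0.47 ± 0.18, edgeR adjusted p = 0.113). In the same comparison 5 of 6 neutrophil genes tested (median 10.85), 4 of 4 mast cell genes (7.99) and 10 of 12 cardiomyocyte genes (2.83) rose, and 3 of 7 globin genes fell (-2.50). The count of 7 members was 4 without E12.5 replicate 1, when Folr2 (adjusted p = 0.124), Lyve1 (0.0744) and Mrc1 (0.0858) missed the threshold, and without E16.5 replicate 2 Folr2 (0.0501) and Mrc1 (0.0975) missed it. In C1q-positive barcodes 7 members were tested, and 5 were called at E12.5 (Folr2, Cd74, Lyz2, Mrc1 and Cx3cr1), 3 at E14.5 (Folr2, Lyve1 and Lyz2) and 2 at E16.5 (Lyz2 and Cd74), against 17.2, 3.89 and 1.38% of 5523 genes. The Cd74 call at E12.5 rested on only 5 and 3 UMIs at that stage. From E12.5 to E16.5 these barcodes gave 4 calls (Lyve1, Lyz2, Ccr2 and Cd74), against 8.89% of genes. Neighbouring steps share the libraries of their common stage.

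**Figure D1:**
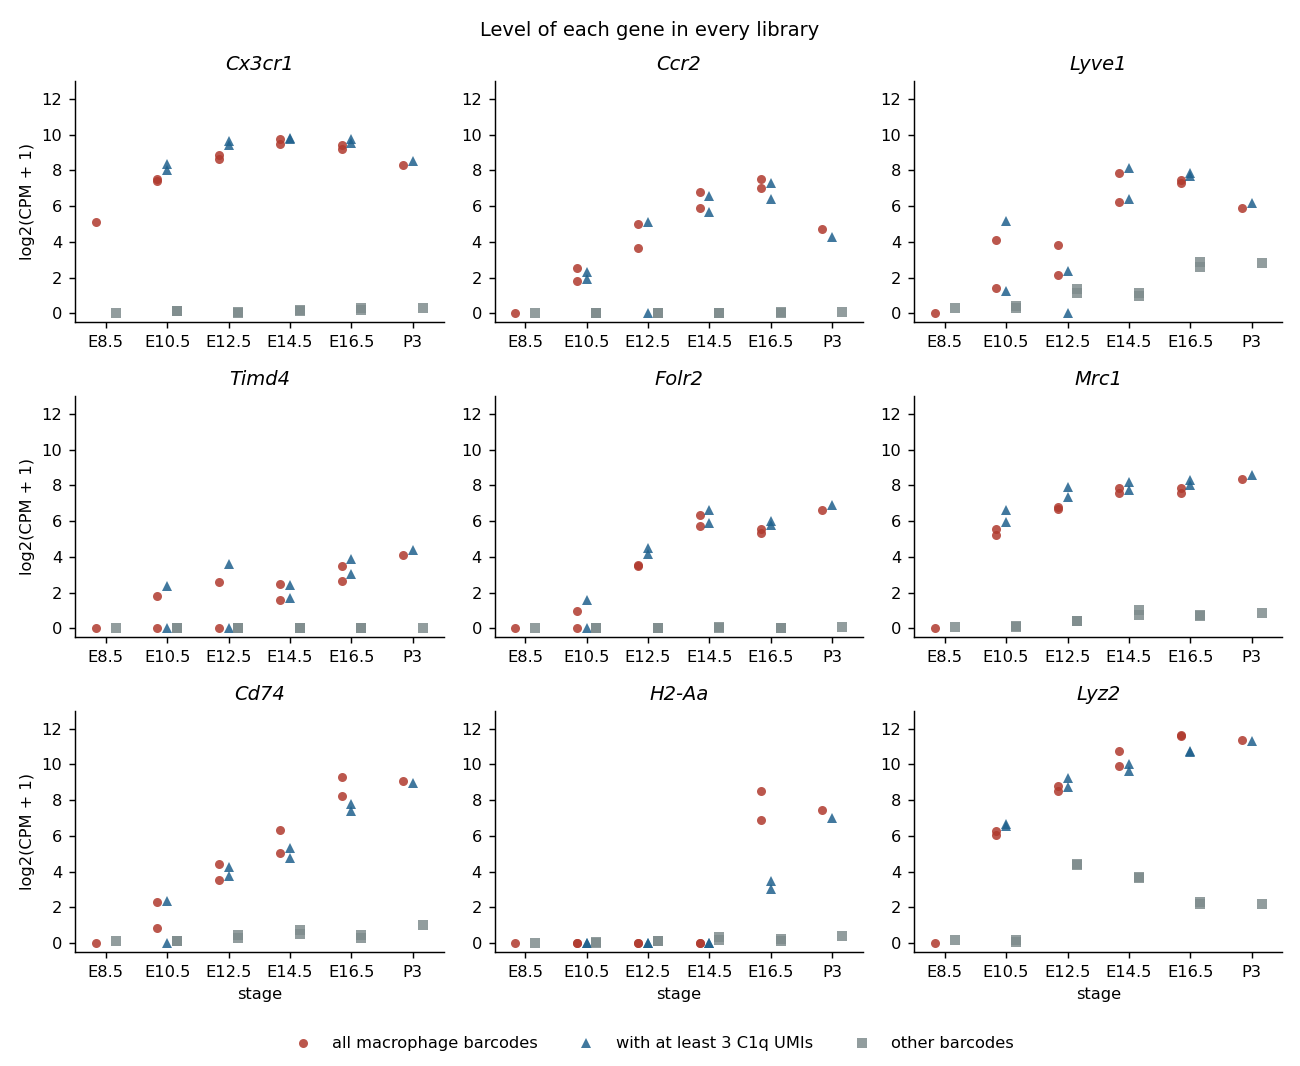
Level of the 9 genes in every library, as log2 of CPM plus 1, against stage. Circles are all macrophage barcodes of a library, triangles those with at least 3 C1q UMIs and squares the other barcodes; H2-Aa circles leave 0 only at E16.5 and P3, and Lyz2 squares stand highest at E12.5, near 20 CPM.

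Cx3cr1, the receptor of the chemokine fractalkine (chr9:119901616-120069879, minus strand), was the only member detected in the 5 macrophage barcodes of E8.5. Its level in summed macrophage barcodes was 34.3 CPM at E8.5 (4 UMIs), 166 and 185 in the E10.5 libraries, 404 and 456 (E12.5), 716 and 849 (E14.5), 582 and 686 (E16.5), and 316 at P3. Libraries of neighbouring stages up to E16.5 did not overlap, and the order from low to high was E8.5, E10.5, E12.5, E16.5 and E14.5. The joined matrix of P3 stood between E10.5 and E12.5, but its 2 suffixes differed. By the quasi-likelihood test of edgeR, with p-values adjusted after Benjamini and Hochberg over all genes, Cx3cr1 rose by 1.57 ± 0.18 (log2 fold change ± SE) from E10.5 to E12.5 (adjusted p = 0.000341, 2 libraries a stage) and by 0.77 ± 0.18 from E12.5 to E14.5 (adjusted p = 0.0254). The difference of E16.5 from E14.5 was -0.30 ± 0.18 (edgeR adjusted p = 0.539).

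In C1q-positive barcodes Cx3cr1 stood at 261 and 332 CPM (E10.5), 810 and 696 (E12.5), 855 and 910 (E14.5), and 739 and 858 at E16.5. Here the step to E12.5 was 1.62 ± 0.19 (edgeR adjusted p = 2.30e-05), and that to E14.5 was 0.12 ± 0.19 (adjusted p = 0.764). The Cx3cr1 call between E12.5 and E14.5 was also lost without E12.5 replicate 1 (adjusted p = 0.118) and without either E14.5 library (0.0544 and 0.154). At 2000 UMIs per barcode, 24.5 and 26.2% of macrophage barcodes were expected to show Cx3cr1 at E10.5, 66.4 and 77.8% at E14.5 and 40.8% at P3. At P3 the macrophage barcodes of suffix 1 had 191 CPM, near E10.5, and those of suffix 2 had 430, within the range of E12.5.

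Ccr2, the receptor by which monocytes follow Ccl2 out of the marrow (chr9:124101950-124113557, plus strand), was scarce before E14.5. Its UMIs in macrophage barcodes numbered 0 at E8.5, 3 and 5 (E10.5), 7 and 12 (E12.5), 95 and 30 (E14.5), 143 and 102 (E16.5), and 66 at P3. As CPM these were 2.51 and 4.87 (E10.5), 11.8 and 31.4 (E12.5), 110 and 58.9 (E14.5), 130 and 183 (E16.5), and 25.7 at P3. Stages from E10.5 to E16.5 did not overlap, and P3 stood within the range of E12.5. In the edgeR fit Ccr2 rose by 2.68 ± 0.73 at E12.5 (adjusted p = 0.0312) and by 2.04 ± 0.48 at E14.5 (adjusted p = 0.0269), and its difference at E16.5 was 0.84 ± 0.35 (adjusted p = 0.360). From E12.5 to E16.5 it rose by 2.87 ± 0.46 (adjusted p = 0.00237).

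The single steps of Ccr2 rested on few UMIs. In C1q-positive barcodes they missed the threshold (edgeR adjusted p = 0.186 and 0.104), while the longer step, from E12.5 to E16.5, passed it (2.73 ± 0.67, adjusted p = 0.0169). The first step was also lost without either E10.5 library or without E12.5 replicate 2 (adjusted p between 0.0693 and 0.211), and the next without E12.5 replicate 1 or E14.5 replicate 1 (0.214 and 0.196). Ccr2 had more CPM in C1q-low than in C1q-positive barcodes at E14.5 (170 and 126 against 94.7 and 50.7), at E16.5 (258 and 267 against 83.4 and 154) and at P3 (62.1 against 18.3). Of the 39 Ccr2 UMIs of C1q-positive barcodes at P3, 36 fell under suffix 2 and 3 under suffix 1.

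The ligands of these receptors were read in the same sums, from a list of 8 ligands of the members. In macrophage barcodes 5 of the 8 were tested. The Ccr2 ligands Ccl12, Ccl7 and Ccl2 rose from E10.5 to E12.5, by 2.93, 2.89 and 2.72 on the log2 scale (edgeR adjusted p = 0.0101, 0.0312 and 0.00986), and Ccl12 rose again to E14.5, by 2.09 (adjusted p = 0.0205), where the cytokine Mif fell by 0.65 (adjusted p = 0.0366). The list had a median of 2.72 in the first step against 0.05 over all genes tested. Between E14.5 and E16.5 the smallest p of the list was that of Ccl2 (-1.06 ± 0.47, edgeR adjusted p = 0.397). In endothelial barcodes (at least 6 UMIs of Cdh5, Pecam1, Tie1, Esam, Cldn5 and Emcn, macrophage barcodes left out), 6 of the 8 were tested, and 3 rose and 2 fell to E12.5, where 30.3% of all genes were higher and 28.9% lower. Ccl2 and Ccl7 rose there too, by 4.74 and 4.36 (adjusted p = 5.26e-10 and 2.11e-06). Cardiomyocyte genes and fibroblast and mesenchyme genes rose in the same step of these barcodes, as given below for Lyz2, and their part was not tested. Cx3cl1, which encodes fractalkine, fell in endothelial barcodes by 1.90 from E10.5 to E12.5 (edgeR adjusted p = 3.20e-05). It rose there by 1.37 from E14.5 to E16.5 (adjusted p = 0.0095), where 9.53% of all genes were higher and 8.26% lower. The other ligands of the list in the later steps of these barcodes are not given here.

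Lyve1, a receptor for hyaluronan on lymphatic vessels and on a group of tissue macrophages (chr7:110850607-110863239, minus strand), appeared in number at E14.5. Its UMIs in macrophage barcodes were 0 at E8.5, 2 and 17 (E10.5), 2 and 5 (E12.5), 199 and 38 (E14.5), 169 and 97 (E16.5), and 151 at P3. The levels were 1.67 and 16.6 CPM (E10.5), 3.37 and 13.1 (E12.5), 229 and 74.7 (E14.5), 154 and 174 (E16.5), and 58.9 at P3. E10.5 and E12.5 overlapped, every later library stood above both, and E14.5 enclosed E16.5. Of the 17 UMIs at E10.5 replicate 2, 14 came from a single barcode.

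Lyve1 rose by 4.34 ± 0.84 from E12.5 to E14.5 in the edgeR fit (adjusted p = 0.0117). The differences of the step before (0.00, adjusted p = 1) and of the step after (0.06 ± 0.50, adjusted p = 0.985) did not pass, and both turned sign under other settings. In C1q-positive barcodes the rise was 6.37 ± 1.18 (adjusted p = 0.00646), from 0 and 1 UMI at E12.5. Without E12.5 replicate 1 or without E14.5 replicate 1 its adjusted p in the whole class was 0.103 and 0.0775.

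Timd4, a receptor for phosphatidylserine on dying cells (chr11:46810800-46844332, plus strand), was rare throughout and was removed from the fit by the filter on low counts. Macrophage barcodes held 0 Timd4 UMIs at E8.5, 3 and 0 (E10.5), 3 and 0 (E12.5), 4 and 1 (E14.5), 11 and 3 (E16.5), and 42 at P3. The highest level was 16.4 CPM at P3, where 19 of 210 barcodes held it, followed by 10.0 and 5.37 CPM at E16.5. At 2000 UMIs per barcode its expected share was 2.60% at P3 and at most 1.63% in any earlier library. Of its 67 UMIs, 66 lay in C1q-positive barcodes.

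Folr2, a folate receptor of resident macrophages (chr7:101839988-101857194, minus strand), was confined in these matrices to C1q-positive barcodes within the macrophage class. It had 0 UMIs at E8.5, 0 and 1 (E10.5), 6 and 4 (E12.5), 69 and 26 (E14.5), 43 and 26 (E16.5), and 251 at P3. In the whole class these were 0 and 0.975 CPM (E10.5), 10.1 and 10.48 (E12.5), 79.6 and 51.1 (E14.5), 39.2 and 46.6 (E16.5), and 97.8 at P3. Stages from E10.5 on did not overlap, and P3 was the highest. Folr2 rose by 4.31 ± 0.91 from E10.5 to E12.5 (edgeR adjusted p = 0.00984) and by 2.63 ± 0.42 from E12.5 to E14.5 (adjusted p = 0.00422), and its difference at E16.5 was -0.66 ± 0.29 (adjusted p = 0.394). Both calls were also made in C1q-positive barcodes, with 4.44 ± 0.99 and 1.94 ± 0.46 (edgeR adjusted p = 0.00542 and 0.0278). They rest there on the same Folr2 UMIs as in the whole class and are no second support. The first was lost without E10.5 replicate 1 (adjusted p = 0.0622), which held no Folr2 UMI.

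Mrc1, the macrophage mannose receptor (chr2:14229392-14332057, plus strand), was the most widely detected of the uptake receptors among the members within macrophage barcodes. Its level was 0 in the 5 barcodes of E8.5, 36.8 and 46.8 CPM (E10.5), 109 and 99.6 (E12.5), 231 and 193 (E14.5), 188 and 231 (E16.5), and 322 at P3. The stages up to E14.5 did not overlap, E14.5 and E16.5 did, and P3 was the highest. By edgeR Mrc1 rose by 1.59 ± 0.23 at E12.5 (adjusted p = 0.00122) and by 0.94 ± 0.21 at E14.5 (adjusted p = 0.0208), with a difference of -0.02 ± 0.19 at E16.5 (adjusted p = 0.985) that turned sign under other settings.

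All 1653 UMIs of Mrc1 in macrophage barcodes lay in C1q-positive ones. There it stood at 60.5 and 97.0 CPM (E10.5), 237 and 159 (E12.5), 287 and 216 (E14.5), 256 and 310 (E16.5), and 387 at P3. The rise to E12.5 passed (1.62 ± 0.27, edgeR adjusted p = 0.000565), and the step to E14.5 was 0.25 ± 0.24 (adjusted p = 0.608), with libraries that overlapped. C1q-positive barcodes made up 44.4 and 56.5% of the class at E12.5 and 86.1 and 90.6% at E14.5. The Mrc1 call at E14.5 was lost without E12.5 replicate 1, E12.5 replicate 2 or E14.5 replicate 1 (adjusted p = 0.102, 0.0561 and 0.138).

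The members were also paired within the 475 C1q-positive barcodes, where barcodes of a library share their depth and their source and no test was made. Ccr2 was detected in 64 of them, Lyve1 in 98, and both in 1, where 15.1 barcodes would hold both if the genes were unrelated within each library. Ccr2 and Folr2 met in 2 barcodes (16.6 if unrelated) and Ccr2 and Mrc1 in 20 (40.6 if unrelated), neither pair being among those planned. In contrast, 95 of the 98 Lyve1 barcodes held Mrc1 (66.4 if unrelated), 68 held Folr2 (29.2) and 90 held Cx3cr1 (87.3). Timd4 and Lyve1 met in 14 of 37 Timd4 barcodes (6.99 if unrelated). At full depth Ccr2 and Lyve1 thus lay in nearly separate barcodes, and Lyve1 barcodes were nearly all Mrc1 barcodes. In a draw of 2000 UMIs per barcode, Ccr2 and Lyve1 met in 0 barcodes of each library. Lyve1 barcodes with and without Mrc1 then numbered 7 and 7 in E14.5 replicate 1 and 4 and 1 in replicate 2. They numbered 4 and 7 in E16.5 replicate 1, 8 and 1 in replicate 2, and 10 and 4 at P3.

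**Figure D2:**
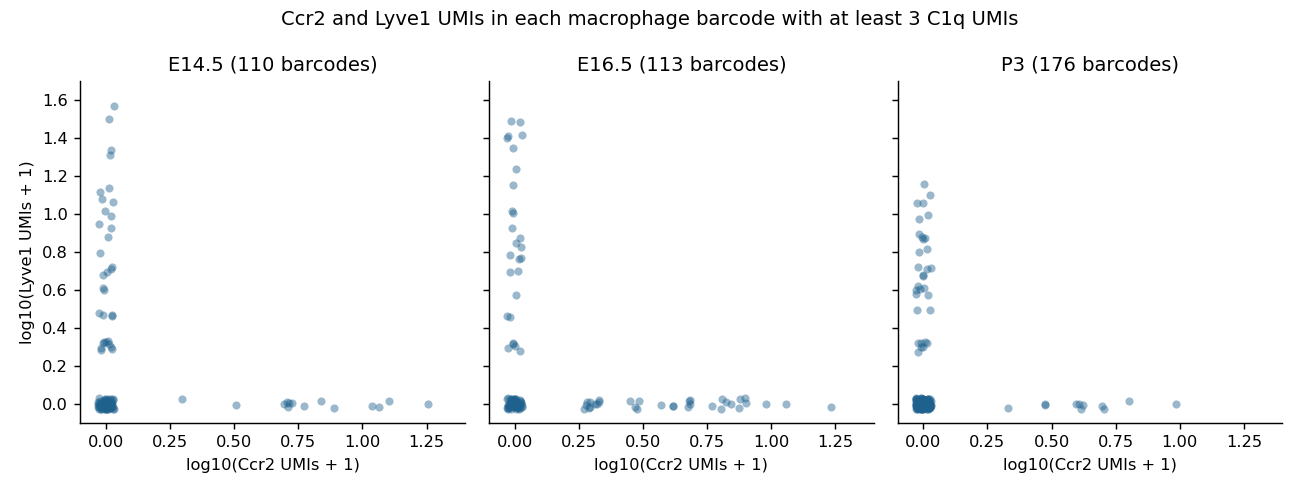
Lyve1 UMIs against Ccr2 UMIs in each C1q-positive macrophage barcode at E14.5, E16.5 and P3, both as log10 of the count plus 1 and with points spread slightly so that they do not hide each other. Each point is a barcode; points lie along the 2 axes and no barcode at these stages held both genes.

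Outside the macrophages Lyve1 was found mainly in endothelial barcodes. Endothelial barcodes held 68.6% of all Lyve1 UMIs of the barcodes of at least 1000 UMIs at E8.5, 72.0 and 63.2% (E10.5), 91.2 and 88.4% (E12.5), 22.97 and 49.6% (E14.5), 70.1 and 77.0% (E16.5), and 82.0% at P3. Macrophage barcodes held 70.3 and 33.0% at E14.5 and at most 25% in any other library. In endothelial barcodes Lyve1 stood at 5.06 and 3.70 CPM (E10.5), 7.84 and 6.47 (E12.5), 6.58 and 8.42 (E14.5), 58.3 and 70.9 (E16.5), and 48.6 at P3. The libraries from E16.5 on stood far above all earlier ones. In a separate edgeR fit of these barcodes Lyve1 rose by 0.68 ± 0.19 to E12.5 (adjusted p = 0.00655) and by 3.11 ± 0.16 from E14.5 to E16.5 (adjusted p = 1.50e-08), with a difference of -0.06 ± 0.19 in between (adjusted p = 0.832). In this fit 2, 1 and 1 of the 3 members tested (Lyve1, Mrc1 and Lyz2) were called in the 3 steps, all higher, where 59.2% (30.3% higher and 28.9% lower), 33.6% (15.3 and 18.3%) and 17.8% (9.53 and 8.26%) of 12858 genes were called. From E12.5 to E16.5 all 3 were called, 2 higher (Lyve1 and Mrc1) and 1 lower (Lyz2), where 45.1% of genes (21.7% higher and 23.3% lower) were. The first call of Lyve1 was lost without E10.5 replicate 2 (adjusted p = 0.120) and without E12.5 replicate 1 (0.0577). The larger of the 2 called rises of Lyve1 in endothelial barcodes was that from E14.5 to E16.5, and the macrophage class was called from E12.5 to E14.5; the difference between the classes was not tested.

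Within endothelial barcodes the Lyve1 UMIs were divided by Ccl21a, a chemokine of lymphatic vessels, and Npr3, a marker of endocardium. Barcodes with at least 3 Ccl21a UMIs numbered 3 and 4 at E14.5, all with Prox1, a factor of lymphatic endothelium, and held 3 and 0 Lyve1 UMIs (26.3 and 0 CPM). They numbered 11 and 7 (E16.5) and 7 (P3), of which 10, 7 and 7 held Prox1, and their Lyve1 level was 714 and 1222 CPM (E16.5) and 1520 (P3). Barcodes with Npr3 had 10.45 and 15.8 CPM (E14.5), 73.9 and 86.1 (E16.5) and 96.3 (P3). In the rest Lyve1 was between 1.47 and 7.22 CPM in the 10 matrices, and up to E10.5 barcodes with Npr3 stood below the rest (2.05 against 4.25 CPM at E8.5, 3.83 and 3.08 against 5.62 and 4.10 at E10.5). At E16.5 more Lyve1 UMIs came from Npr3 barcodes (292 and 239) than from Ccl21a barcodes (186 and 185), which were few.

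**Figure D3:**
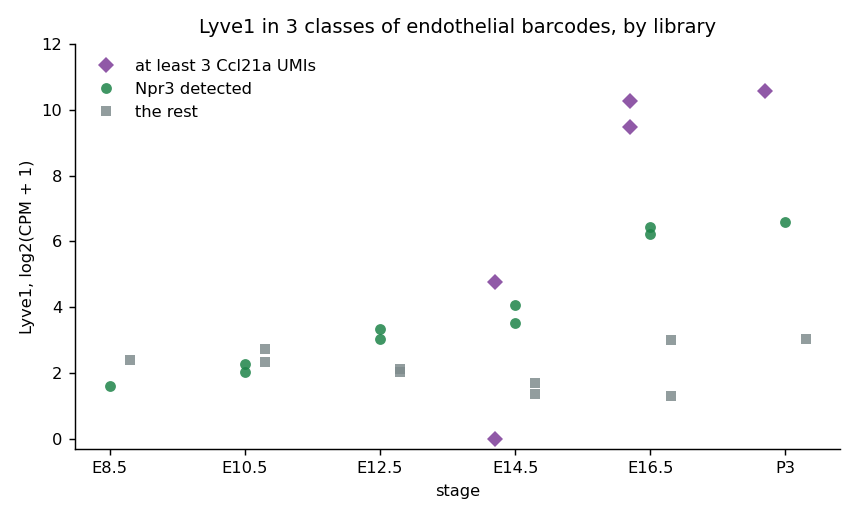
Lyve1 in 3 classes of endothelial barcodes, as log2 of CPM plus 1, against stage, with a point for each library. Diamonds are barcodes with at least 3 Ccl21a UMIs (shown from E14.5, where the class had members), circles barcodes with Npr3 and squares the rest; from E16.5 the diamonds stand at 714 CPM or more and the circles at 73.9 CPM or more.

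Mrc1 was also found in endothelial barcodes, at a far lower level. It stood at 0.515 and 0.775 CPM (E10.5), 0.865 and 1.18 (E12.5), 3.95 and 6.65 (E14.5), 5.54 and 4.75 (E16.5), and 3.63 at P3. All libraries from E14.5 on stood above the earlier ones. By edgeR Mrc1 rose by 2.20 ± 0.32 from E12.5 to E14.5 (adjusted p = 0.000111), and its difference at E16.5 was -0.00 ± 0.29 and turned sign under other settings. At E14.5, 31 of 39 and 29 of 45 endothelial Mrc1 UMIs lay in barcodes with neither Npr3 nor Ccl21a, whereas 55 of 65 and 49 of 57 of Lyve1 lay in barcodes with Npr3. Macrophage barcodes nevertheless held between 46.9 and 86.3% of all Mrc1 UMIs from E10.5 on.

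Cd74, the invariant chain that guides class II molecules to the endosome (chr18:60803848-60812652, plus strand), was scarce up to E14.5 and rose at E16.5. Macrophage barcodes held 0 Cd74 UMIs at E8.5, 1 and 4 (E10.5), 12 and 4 (E12.5), 28 and 40 (E14.5), 332 and 354 (E16.5), and 1394 at P3. The levels were 0.836 and 3.90 CPM (E10.5), 20.2 and 10.48 (E12.5), 32.3 and 78.6 (E14.5), 302 and 634 (E16.5), and 543 at P3. Stages up to E16.5 did not overlap, and P3 stood within the range of E16.5. Cd74 rose by 3.15 ± 0.43 from E14.5 to E16.5 (edgeR adjusted p = 0.00882). Of its UMIs at E16.5, 196 of 332 and 256 of 354 lay in 2 barcodes of each library, those with at least 10 H2-Aa UMIs and no C1q. The size of this rise thus rests in large part on them. Differences of Cd74 in the earlier steps were 3.00 ± 0.98 (adjusted p = 0.0611) and 1.62 ± 0.63 (adjusted p = 0.146). The first of these passed with DESeq2 (adjusted p = 0.0309) and in C1q-positive barcodes (0.0264). The C1q-positive call rested on 0 and 2 UMIs at E10.5 and 5 and 3 at E12.5. Single barcodes held 3 of the 5 and 2 of the 3, and the E12.5 levels without them fell from 18.2 and 12.6 to 7.64 and 4.55 CPM.

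In C1q-positive barcodes Cd74 stood at 25.8 and 39.7 CPM (E14.5), 166 and 224 (E16.5), and 504 at P3. The rise to E16.5 was 2.58 ± 0.31 there (edgeR adjusted p = 0.000364), with Cd74 detected in 31 of 65 and 21 of 48 barcodes at E16.5 and in 80 of 176 at P3. Single barcodes carried much of the level. The highest held 28 of 133 and 42 of 93 Cd74 UMIs at E16.5, and the level without it was 133 and 126 CPM. At P3, 6 barcodes with at least 10 H2-Aa UMIs held 823 of 1075, and the level without them was 123 CPM. In the whole class the call was lost without E14.5 replicate 1 (adjusted p = 0.0898). At P3 the C1q-positive barcodes of suffix 1 had 276 CPM and those of suffix 2 had 710.

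H2-Aa, the alpha chain of the class II molecule I-A (chr17:34282744-34287823, minus strand), was not detected in any of the 272 macrophage barcodes up to E14.5. At E16.5 it had 129 and 203 UMIs, in 4 of 94 and 3 of 67 barcodes, and at P3 it had 443 UMIs in 14 of 210. The levels were 117 and 364 CPM (E16.5) and 173 (P3). With a floor of 3 counts over the E14.5 sums, the ratio of the E16.5 level to that floor was 92.0. It was 34.0 without E14.5 replicate 1, 57.9 without E14.5 replicate 2, 167 without E16.5 replicate 1 and 53.9 without E16.5 replicate 2. The floor takes UMIs as independent, whereas 2 barcodes of each E16.5 library held nearly all of them. The ratio is therefore no lower limit of the change. H2-Aa had no UMI in the tested libraries before E16.5 and passed the filter on low counts through E16.5 alone, so that its call by edgeR (adjusted p = 0.0127) is no independent support. The call was lost with DESeq2 (adjusted p = 0.663), without E14.5 replicate 1 (0.0974) and with at least 12 UMIs of the rule genes (0.0575). The longer step, from E12.5 to E16.5, was also called by edgeR and lost with DESeq2 (adjusted p = 0.314).

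The H2-Aa UMIs came from very few barcodes. At E16.5, 2 barcodes of each library held 121 of the 129 and 200 of the 203, with 74, 47, 148 and 52 UMIs of H2-Aa, and none of the 4 had a C1q UMI. They passed the rule on Csf1r (3, 0, 1 and 0 UMIs), Fcer1g (30, 5, 3 and 3) and Tyrobp (33, 5, 9 and 10). The median of the 6 rule genes together was 150.5 and 95 UMIs in these libraries. The 4 barcodes also held 123, 73, 164 and 92 UMIs of Cd74, and H2-Ab1 (between 28 and 95) and H2-Eb1 (between 19 and 89) were present in each. Ccr2 was seen in 3 of the 4, and Mrc1, Lyve1 and Cx3cr1 in none. The dendritic cell genes Itgax, Flt3 and Cd209a were seen in 2, 1 and 1 of them, and Zbtb46 in none. C1q-positive barcodes of E16.5 held the remaining 11 UMIs, as 5, 3 and 3 UMIs in single barcodes. These are too few to set the C1q-positive barcodes of E16.5 apart from those of E14.5, which held none.

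At P3 a larger part of H2-Aa lay beside C1q. Of the 443 UMIs, 267 lay in C1q-positive barcodes and 176 in C1q-low ones. At least 10 UMIs of H2-Aa were held by 9 barcodes, of which 3 had no C1q UMI and 6 had between 8 and 256. These 9 held 1126 of the 1394 Cd74 UMIs of the matrix, and 7 of them held Ccr2. Lyve1 was in none of the 9. At full depth, C1q-positive barcodes with Ccr2 and H2-Aa numbered 5 over all matrices. If the genes were unrelated within each library, 1.49 would be found. Suffix 1 had 131 CPM of H2-Aa and suffix 2 had 211.

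**Figure D4:**
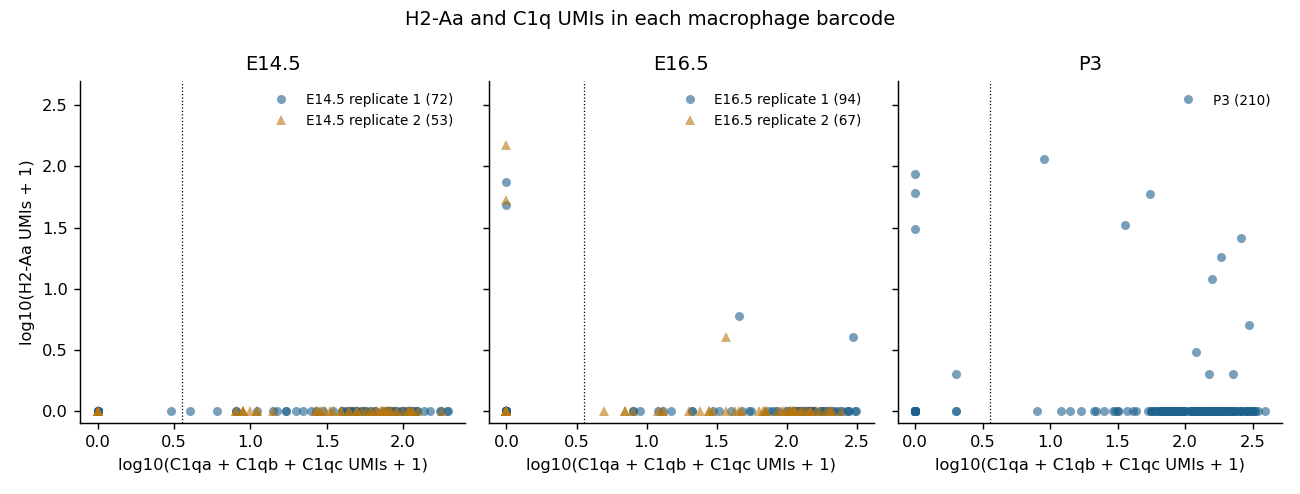
H2-Aa UMIs against the summed UMIs of C1qa, C1qb and C1qc in each macrophage barcode at E14.5, E16.5 and P3, both as log10 of the count plus 1. Each point is a barcode and the dotted line separates those with at least 3 C1q UMIs; at E16.5 the 4 barcodes with at least 10 H2-Aa UMIs have no C1q, and at P3 6 of 9 lie to the right of the line.

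Other genes of antigen presentation were read from 2 lists. Of 13 genes of the class II pathway 8 were tested in macrophage barcodes, and 3 rose to E12.5 (Ctss by 4.25, Ifi30 by 3.13 and H2-DMa by 3.11), 1 to E14.5 (Ctss by 1.20) and 6 to E16.5, H2-Aa included, where 10.4, 4.32 and 0.709% of all genes were higher. Ctss encodes the protease that trims the invariant chain, and H2-DMa a subunit that helps to load peptides. Beside H2-Aa, the largest changes at E16.5 were those of H2-Eb1 and H2-Ab1, the beta chains of I-E and I-A. They had 3 and 16 UMIs in all libraries before E16.5, and at E16.5 the 4 C1q-low barcodes named above held 88 of 90 and 108 of 111 UMIs of H2-Eb1, and 86 of 95 and 128 of 129 of H2-Ab1. Their calls thus rest on those barcodes and, like that of H2-Aa, are no independent support. In C1q-positive barcodes 4 of the 13 were tested and 3 rose at E16.5, namely Cd74, H2-DMa (2.16 ± 0.37, adjusted p = 0.00643) and Ctss (1.15 ± 0.20, adjusted p = 0.00643). Of 12 class I genes 8 were tested, and 5, 1 and 1 rose in the 3 steps, against the same shares of all genes. The gene of the class I heavy chain H2-K1 was the only one at E16.5, by 1.21 (adjusted p = 0.0243).

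Lyz2, which encodes lysozyme M (chr10:117277331-117282321, minus strand), rose in each of the 3 steps tested. Its level in macrophage barcodes was 0 in the 5 barcodes of E8.5, 64.3 and 77.0 CPM (E10.5), 444 and 362 (E12.5), 1739 and 976 (E14.5), 3031 and 3183 (E16.5), and 2642 at P3. Stages up to E16.5 did not overlap and P3 stood between E14.5 and E16.5. By edgeR Lyz2 rose by 2.78 ± 0.25 to E12.5 (adjusted p = 6.54e-05), by 1.67 ± 0.23 to E14.5 (adjusted p = 0.00227) and by 1.20 ± 0.22 to E16.5 (adjusted p = 0.0341). The last call was lost in 8 of the other settings (adjusted p between 0.0519 and 0.188), among them the fits without E10.5 replicate 1, E10.5 replicate 2, E14.5 replicate 2, E16.5 replicate 1 or E16.5 replicate 2.

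The level of Lyz2 in the whole class was carried in part by C1q-low barcodes. These had 4670 and 2401 CPM (E14.5), 6685 and 7620 (E16.5) and 3354 (P3), and neutrophil genes summed to 12409 and 126 CPM, 39597 and 6839, and 31743 in the same barcodes. C1q-positive barcodes had 92.1 and 101 CPM of Lyz2 at E10.5, 594 and 427 (E12.5), 1022 and 802 (E14.5), 1692 and 1668 (E16.5), and 2496 at P3, with neutrophil genes between 3.65 and 36.4 CPM in sum. Here stages did not overlap and P3 was the highest. Lyz2 rose in each step also in these, by 2.66 ± 0.21, 0.74 ± 0.19 and 0.87 ± 0.18 (edgeR adjusted p = 2.78e-07, 0.0365 and 0.0164).

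Outside the macrophage class Lyz2 was higher in the early hearts than in the embryos or at P3. In other barcodes it stood at 0.138 CPM at E8.5 and 0.130 and 0.0553 (E10.5), at 19.97 and 20.5 (E12.5), 11.9 and 11.5 (E14.5), 3.91 and 3.52 (E16.5), and 3.61 at P3. Barcodes under 100 UMIs, which hold free RNA, had 28.9 and 25.1 CPM (E12.5), and endothelial barcodes, where edgeR called a rise of 3.94 ± 0.71 from E10.5 to E12.5 (adjusted p = 0.000214), had 2.49 and 1.84 CPM. In the same step of endothelial barcodes all 12 cardiomyocyte genes (median 4.64) and all 8 fibroblast and mesenchyme genes (2.52) rose, and their part was not tested. In cardiomyocyte barcodes (here those other barcodes whose share of UMIs of the 12 cardiomyocyte genes was above the median of their library), divided by Nppa (atrial natriuretic peptide, high in atria and trabeculae) after the values had been seen, the 25% with the most Nppa had 67.8 and 74.0 CPM of Lyz2 at E12.5, against 28.2 and 27.4 in the remainder. The corresponding levels were 54.8 and 48.2 against 6.77 and 8.78 (E14.5), 13.96 and 16.51 against 2.85 and 1.01 (E16.5), and 2.78 against 3.26 at P3. The 25% with the most Nppa was higher in each of the 6 libraries from E12.5 to E16.5. Few barcodes carried much of this, since those with at least 5 Lyz2 UMIs held 624 of 892 and 811 of 1138 UMIs of the upper 25% at E12.5 (57 and 56 barcodes), 402 of 569 and 245 of 380 at E14.5 (31 and 19), and 140 of 208 and 142 of 174 at E16.5 (4 and 10). Without such barcodes the levels were 23.3 and 23.6 against 14.6 and 13.8 CPM (E12.5), 17.5 and 18.2 against 4.46 and 4.31 (E14.5), and 4.58 and 3.09 against 1.68 and 1.01 (E16.5). In the 25% with the most Nppa, between 14.9 and 28.3% of barcodes held a Lyz2 UMI at E12.5 and E14.5. In the remainder the share at these stages was between 4.63 and 16.8%.

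Lyz2 lies beside its copy Lyz1 (chr10:117287797-117292868, minus strand), the lysozyme of Paneth cells. The 250 bases before the RefSeq starts, shown above in part, are identical at 152 places (60.8%) when set side by side. The 50 bases next to the start are the same in both. For Lyz2 these 50 bases reach into the gene as GENCODE places it, so they are not all upstream by that position. Of the 1267 windows of 50 bases in the Lyz2 transcripts, 195 (15.4%) are also found in Lyz1. Whether reads of the length sequenced can be assigned in these stretches was not examined. In macrophage barcodes Lyz1 had 0 UMIs up to E14.5 beside 2563 of Lyz2, then 1, 1 and 6. In other barcodes there were 25.1 and 21.0 Lyz1 UMIs for every 100 of Lyz2 at E12.5, 22.2 and 24.1 (E14.5), and 8.31 and 13.3 at E16.5. At P3 there were 2.14, from 12 Lyz1 UMIs.

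**Figure D5:**
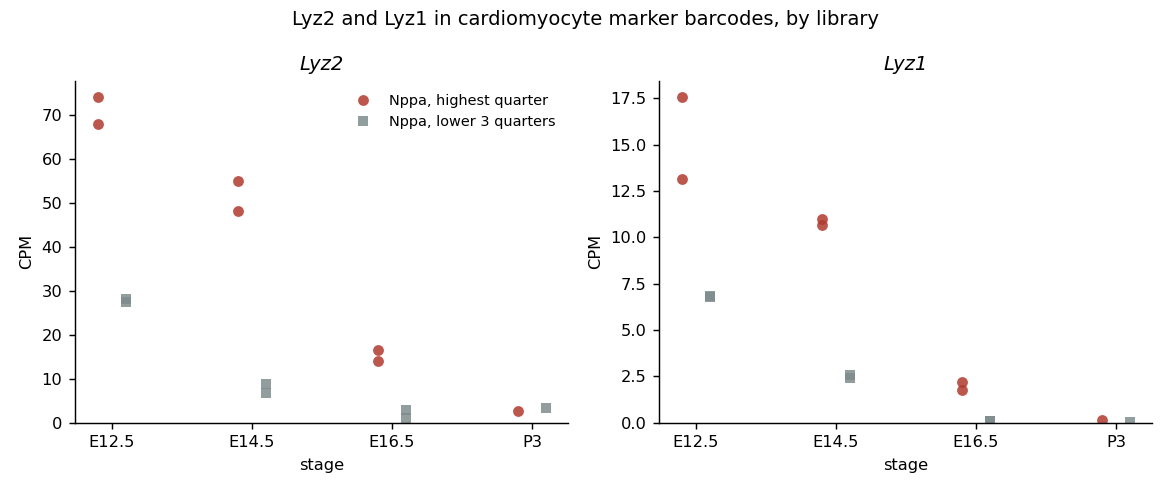
Lyz2 (left) and Lyz1 (right) in cardiomyocyte barcodes as CPM against stage, with a point for each library. Circles are the 25% of barcodes with the most Nppa and squares the other 75%; at E14.5 the circles of Lyz2 stand at 54.8 and 48.2 CPM and the squares at 6.77 and 8.78.

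Genes of resident macrophages from a list of 26 were compared with these steps. Of 20 tested in the whole class, 15 rose to E12.5, led by Apoe (4.65), Ms4a7 (4.24), Clec4n (3.50) and Ltc4s (2.91), and 13 rose to E14.5, led by Ms4a7 (2.80), Clec4n (2.76) and the growth factor Igf1 (2.67). At E16.5 Apoe alone rose (0.78 ± 0.10, edgeR adjusted p = 0.00502). Over all genes 10.4, 4.32 and 0.709% were higher in these steps. Pf4, a chemokine of platelets that macrophages also express, fell by 2.45 from E12.5 to E14.5 in the whole class (adjusted p = 0.000408) and rose by 2.08 in C1q-positive barcodes (adjusted p = 0.00353), beside the platelet genes that macrophage barcodes held up to E12.5. In C1q-positive barcodes 15, 7 and 2 of 19 tested genes rose in the 3 steps, where 17.2, 3.89 and 1.38% of all genes were called in either direction.

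The genes whose level was most like that of a member over the 10 matrices were found by Pearson's r of log2(CPM + 1) among genes of at least 20 CPM on average. Points share the library and its depth, and no p was computed. Aif1, Ly86 and Igsf6 followed Mrc1 (r = 0.995 to 0.996), and Adgre5 and Msrb1 followed Lyz2 (0.997 and 0.995). H2-Eb1, H2-Ab1 and Cd207 were nearest to H2-Aa (0.979 to 0.990), and Lsp1, H2-DMa and Vsir to Cd74 (0.976 to 0.985). H2-Aa had no UMI in the macrophage sums before E16.5. From then on the same few barcodes held most UMIs of H2-Aa, H2-Eb1 and H2-Ab1, so that their r rests on those barcodes. Pkib, Mgat4a and Ptpn18 followed Cx3cr1 (0.978 to 0.985), Btg1, Itm2b and Ypel3 followed Folr2 (0.977 to 0.980), and Tnfaip8l2, Sorbs2 and Ccl24 followed Ccr2 (0.969 to 0.973). For Lyve1 these were Rnaset2b, Ifnar2 and Soat1 (0.944 to 0.952), and for Timd4 they were Ctnna1, Idh3g and Foxn3 (0.944 to 0.965).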

How the data were processed

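Each deposited matrix holds UMI counts of genes in barcodes, which the authors made with Cell Ranger on mm10. Apart from P3, these are neither normalized nor corrected for free RNA. The P3 matrix listed 10964 barcodes, none of them under 100 UMIs, and the others listed 737280 each. Free RNA could therefore not be read at P3. Whether depth was equalised when the P3 records were joined was not examined. The processing notes of the submitters name Cell Ranger 2.1.1 and Seurat 3.1.1. The labels name trypsin and the v2 kit, the paper collagenase II and the v3 kit. Labels give 13 records, in 10 matrices: E16.5 replicate 1 and P3 each join 2 records, and E8.5 replicate 1 is not analysed here. The 9 genes, the gene lists and the tests were chosen with earlier results of these data known.

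UMIs were summed per library over macrophage and over endothelial barcodes and tested with edgeR 4.0.16 (quasi-likelihood, TMM, filterByExpr) over 8 libraries with stage as the only term, and calls were made at a Benjamini-Hochberg adjusted p under 0.05. The SE is the log2 fold change divided by the square root of F. Shares at 2000 UMIs are expected values of drawing 2000 UMIs per barcode, and shallower barcodes were left out (at most 8 of a library). No doublet caller was run. Neither the deposited counts nor their barcodes were clustered, and the classes rest on the UMI thresholds given. The method was tested on simulated counts. Alternatives were DESeq2 1.42.0, no filter, each library left out, a replicate block, the mitochondrial ceilings of the study, hearts alone, at least 12 UMIs of the rule genes, barcodes without doublet-like ones (at least 6 UMIs of the endothelial or of the fibroblast and mesenchyme list, or a cardiomyocyte share above the median of other barcodes), other thinning and, chosen after seeing the data, C1q-positive barcodes. Text names all members, and at most 4 called genes of a list and step with the largest change, besides H2-DMa, Ctss and the barcode genes of H2-Aa, chosen after their values were seen. Some genes that this rule would name are not reported here. Gene positions are those of GENCODE for GRCm38.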

Additional observations from a re-analysis of the deposited data

How the results depend on the processing

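Counts of members called moved by more than 1.5 times as follows. In macrophage barcodes the 5 members of E12.5 against E10.5 became 3 without doublet-like barcodes, the 6 of E14.5 against E12.5 became 3 in C1q-positive barcodes, the 7 of E16.5 against E12.5 became 4 there, and the 3 of E16.5 against E14.5 became 1 with at least 12 UMIs of the rule genes. Leaving out 1 library gave 3 to 6, 2 to 6, 4 to 7 and 1 to 3 members in these comparisons, and 1 to 2, 1 to 2, 2 to 3 and 1 in endothelial barcodes. Over all genes, the 1121 calls of E12.5 against E10.5 became 680 with DESeq2 and 717 without doublet-like barcodes. The 572 of E14.5 against E12.5 became 341 with at least 12 rule UMIs, 215 in C1q-positive barcodes, 359 with DESeq2, 930 without the filter on low counts and 349 without doublet-like barcodes. The 919 of E16.5 against E12.5 became 491 in C1q-positive barcodes and 551 with DESeq2. The 65 of E16.5 against E14.5 became 16 with at least 12 rule UMIs, 41 in the hearts alone, 305 without the filter and 32 without doublet-like barcodes. The endothelial counts of 4321 (E14.5 against E12.5) and 2288 (E16.5 against E14.5) became 2650 and 1243 with DESeq2. Leaving out 1 library gave 442 to 1011, 251 to 504, 497 to 835 and 7 to 86 calls in macrophage barcodes, in the order above, and 6339 to 7769, 2849 to 4252, 4362 to 5696 and 1097 to 2531 in endothelial barcodes.

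Deviations of libraries with the same replicate number correlated between -0.048 and 0.0503 over 6 pairs of stages. The macrophage sums come from few barcodes, so that counting noise could hide a shared batch. Whether the replicate numbers pair the libraries cannot be decided from this. With the replicate block, 2 endothelial members in place of 1 were called from E12.5 to E14.5, Lyz2 being added (adjusted p = 0.0435 by edgeR), and Cd74 passed from E10.5 to E12.5 in macrophage barcodes (adjusted p = 0.00973). It changed no other call of a member.

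Directions turned only for differences that had not passed the test. Lyve1 in macrophage barcodes from E10.5 to E12.5 (0.00) became -0.0634 without the filter, -0.0270 with the replicate block, -0.10 with at least 12 rule UMIs, -2.98 without doublet-like barcodes and -2.57 in C1q-positive barcodes, and lay between -1.16 and 2.28 without 1 library. Mrc1 from E14.5 to E16.5 (-0.02) became 0.0036 under the mitochondrial ceilings, 0.12 with at least 12 rule UMIs, 0.0245 without doublet-like barcodes and 0.15 in C1q-positive ones, and lay between -0.15 and 0.12 without 1 library. Lyve1 in that step (0.06) lay between -0.49 and 1.14 without 1 library, and Cx3cr1 from E12.5 to E16.5 became -0.0328 in C1q-positive barcodes. In endothelial barcodes, Lyve1 from E12.5 to E14.5 lay between -0.21 and 0.17, Mrc1 from E14.5 to E16.5 between -0.39 and 0.38, and Lyz2 in that step between -1.26 and 1.51 without 1 library, while Mrc1 became 0.0101 with the replicate block. The cause of these changes was not tested.

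Of fold changes of members under settings other than leaving out 1 library (the hearts alone, without E10.5, included), 250 kept direction and call, 21 lost the call and 6 gained it. Of the shares of barcodes with a member, 303 stayed within their interval and 57 did not, of which 40 were shares without thinning. Macrophage sums of E12.5 replicate 2 held 381617 UMIs, so 3 counts there stand for 7.86 CPM, and members below that were not measurable in it.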

Other observations

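Barcodes of H2-Aa outside the macrophage class numbered 102, and 295 outside it held Cd74. In endothelial barcodes of P3, Cd74 had 42 UMIs in 16 of 692 barcodes (2.31 CPM), above the 0 to 0.475 CPM of the embryonic libraries. Of 12 class I genes 11 were tested in endothelial barcodes. To E12.5, 6 rose and 1 fell, 2 rose and 1 fell to E14.5, and 10 rose from E14.5 to E16.5, with a median of 2.27 on the log2 scale, where 9.53% of all genes were higher (30.3% and 15.3% in the steps before, with 28.9 and 18.3% lower), among them H2-K1 (1.39 ± 0.30, edgeR adjusted p = 0.00503). Of 13 class II genes only H2-Ab1 (-0.82 ± 0.47, edgeR adjusted p = 0.269) and Ifi30 (0.34 ± 0.42, adjusted p = 0.630) were tested in that step. In macrophage barcodes, 1 of 8 class I genes was called in the same step, H2-K1, and in C1q-positive ones 2 of 6, H2-K1 and H2-D1 (1.36 ± 0.22 and 1.14 ± 0.22, edgeR adjusted p = 0.00376 and 0.0143). In that step of endothelial barcodes 7 of 12 cardiomyocyte genes (median 0.59) and 6 of 8 fibroblast and mesenchyme genes (1.10) rose as well, and their part was not tested. The difference between the barcode classes was not tested.

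The monocyte list of 16 genes was read beside Ccr2. It summed to 3145 and 2852 CPM in C1q-low barcodes at E14.5, 3993 and 4123 (E16.5) and 4124 (P3), against 379 and 249, 549 and 978, and 361 CPM in C1q-positive ones. Of 12 genes tested in the whole class, 5 rose to E12.5 (where 10.4% of all genes were higher), 1 rose and 2 fell to E14.5 (4.32% higher and 3.78% lower), and 3 rose from E14.5 to E16.5 (0.709% higher), among them S100a4 (by 3.61) and S100a6 (by 1.98 on the log2 scale). Neutrophil and mast cell genes were higher in the same C1q-low barcodes, and their part was not tested.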
